A study of Mus musculus with 8 samples.

Results

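The genes described here encode the proteins of the cytosolic ribosome. They were taken by name: every mouse gene that an array probe set names alone and whose symbol is Rpl or Rps with a number (with a, x or y after it), or Rplp0, Rplp1, Rplp2 or Rpsa. This gave 42 genes, measured by 94 probe sets, among 18193 genes and 45037 probe sets. Each gene was represented by its probe set with the highest mean log2 signal over all arrays. The filter on low signal kept 41 of the genes, 22 of the large and 19 of the small subunit, among 13627 genes kept. The exception was Rps16, whose only probe set had signals of at most 5.07. A further 27 ribosomal protein symbols were met only in probe sets that name several genes, and Rplp1, Rpl5, Rpl23, Rpl24 and Rpl32 had no probe set of their own.

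The study compared gene expression in the telencephalon of mice with mutations of Dlx1 and Dlx2, neighbouring homeobox genes that are needed for the development of ventral forebrain neurons. There were 4 groups with 2 arrays each, 8 arrays in all: basal ganglia of -/- mice (BG -/-), basal ganglia of +/- mice (BG +/-), cortex of -/- mice (Ctx -/-) and cortex of +/- mice (Ctx +/-). In each region -/- tissue is set against +/- tissue, which carries the mutation too. The labels give no strain or age, nor whether a group's arrays stand for separate animals or for pools, so p-values measure only the spread between arrays, which may be technical.

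Ribosomal proteins assemble with ribosomal RNA in fixed proportions, and cells make them in amounts that follow growth and division. Their messenger RNAs are among the most abundant in a cell and begin with a run of pyrimidines, the 5′ terminal oligopyrimidine tract, through which mTOR signalling controls their translation. In the developing forebrain, dividing progenitors depend on a high output of ribosomes.

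The start of transcription is where these genes share sequence, so windows of 15 bases before to 15 bases after the annotated start are shown for 7 of them. They are the 2 largest decreases with an entry (Rpl37, Rps18), the only positive genotype differences in the basal ganglia (Rpl12, Rps25), and Rplp2, Rps6 and Rps4x, whose roles are described below. The sequences are RefSeq's (GRCm38.p6), read 5′ to 3′ on the transcribed strand, and capitals mark the longest run of at least 6 C or T. The runs of Rpl37 and Rps25 lie wholly before the annotated start, and Rps4x has none. A run counted here therefore need not be a 5′ terminal oligopyrimidine tract. The windows lie at chr15:5116598-5116627 (plus strand) for Rpl37, chr17:33955651-33955680 (minus strand) for Rps18, chr2:32961697-32961726 (plus strand) for Rpl12 and chr9:44407699-44407728 (plus strand) for Rps25. Those of Rplp2, Rps6 and Rps4x lie at chr7:141447636-141447665 (plus strand), chr4:86857353-86857382 (minus strand) and chrX:102189377-102189406 (minus strand).
Rpl37: agTTTCCTgggcggaagcttatccacagga
Rps18: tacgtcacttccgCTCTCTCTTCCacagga
Rpl12: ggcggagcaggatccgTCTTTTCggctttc
Rps25: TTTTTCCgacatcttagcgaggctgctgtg
Rplp2: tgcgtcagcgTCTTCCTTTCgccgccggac
Rps6: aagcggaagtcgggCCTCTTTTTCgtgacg
Rps4x: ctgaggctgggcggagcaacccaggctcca

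A run of this kind was present near an annotated start of 24 of the 37 genes with an entry (64.9%), against 8833 of 27025 genes with an entry (32.7%). It was found in 34.8% of 69 genes for mitochondrial ribosomal proteins. Rpl7, Rpl8, Rps14, Rps20 and Rps29 had no entry. The letters CCGGAAG, the core of a site for ETS family factors, were found on either strand within 250 bases before to 50 after the start in 18 genes (48.6%), against 9.93% of all genes. They are in capitals in the 100 bases upstream of the start of Rpl37 (chr15:5116513-5116612, plus strand) and Rps18 (chr17:33955666-33955765, minus strand). Both genes were chosen for the size of their decrease.
Rpl37 upstream: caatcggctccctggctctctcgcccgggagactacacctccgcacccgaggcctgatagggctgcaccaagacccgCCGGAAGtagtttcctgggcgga
Rps18 upstream: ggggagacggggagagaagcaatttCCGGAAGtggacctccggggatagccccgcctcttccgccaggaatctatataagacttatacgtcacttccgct

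In the same window, AAGATGG, the core of a YY1 site, was found on either strand in 18.9% of the ribosomal protein genes and in 7.28% of all genes, and the E-box CACGTG in 10.8% and in 8.09%. The letters TATAA lay in the 50 bases before the start, on the transcribed strand, in 10.8% and in 5.89%. The patterns do not contain each other, though the other strand of CCGGAAG can overlap a pyrimidine run, and a match describes the letters, not a site. In the basal ganglia, the median log2 difference between genotypes was -0.36 for the 24 measured genes with a pyrimidine run. It was also -0.36 for the 12 without one, for the 18 with CCGGAAG and for the 18 without it.

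As a check of the labels, Dlx1 signals were 3.67 and 15.5 in BG -/- against 1232 and 1237 in BG +/-, and 2.42 and 1.74 in Ctx -/- against 138 and 137 in Ctx +/-. Dlx2 was likewise lower in both -/- arrays than in both +/- arrays of each region. Arrays of 1 group correlated at 0.971 to 0.983 and arrays of different groups at 0.905 to 0.976 (Pearson, across probe sets). The tissue was checked with markers. Isl1, of basal ganglia neurons, read 1339 to 1629 in the BG arrays and at most 15.8 in the Ctx arrays. Neurod6, of cortical neurons, read at most 844 in BG and at least 4119 in Ctx. A source label naming blood and adrenal medulla conflicts with these markers. Gsx2 and Gad1 were also higher in BG in both genotypes, and Emx1, Emx2, Tbr1, Pax6 and Eomes lower. Nkx2-1, another basal ganglia marker, was dim, at 10.1 to 37.6 in BG and 2.79 to 26.5 in Ctx. It did not pass between regions in +/- or -/- tissue (adjusted p = 0.567 and 0.121, limma). Xist was high in all -/- arrays and low in all +/- arrays of both regions and the Y-linked genes Eif2s3y, Uty and Kdm5d the reverse, so sex and genotype cannot be told apart.

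In the basal ganglia, most ribosomal protein genes had lower signals in -/- tissue, by similar and modest amounts with the deposited scaling. Between BG -/- and BG +/-, the log2 difference was below 0 for 39 of the 41 genes, and its median was -0.36 (a fold of 0.781). Over all genes the median was -0.077, with 58.2% below 0. Over 45 other genes with a mean signal over 6000 it was -0.25, with 93.3% below 0. Of the 41 genes, 5 fell and none rose at an adjusted p under 0.05, which is 12.2%, against 3.05% of all genes called lower and 4.76% called higher (limma, Benjamini-Hochberg over 31526 probe sets). The genes that fell were Rpl37, Rps18, Rps20, Rpl22 and Rpl8, of which Rpl37 alone also passed after quantile normalization. At an unadjusted p under 0.05, 26 were lower, against 15.2% of all genes, and 0 were higher.

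Rpl37, a large-subunit protein, had signals of 815 and 713 in BG -/- and 1642 and 1318 in BG +/-. Rps18, a protein of the small-subunit head whose gene is often used as a reference in PCR, had 7305 and 6610 in BG -/- and 10905 and 11172 in BG +/-. In both genes each -/- array lay below each +/- array. The log2 difference was -0.93 ± 0.18 for Rpl37 (fold 0.523, adjusted p = 0.0253) and -0.67 ± 0.15 for Rps18 (fold 0.63, adjusted p = 0.0431, limma, SE, n = 2 arrays a group).

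Rps20, a small-subunit protein that is mutated in a mouse strain with dark skin, had 9285 and 8859 in BG -/- and 13390 and 13522 in BG +/-. Rpl22, a large-subunit protein that ribosomes can lack and that mouse T cells need for their development, had 5830 and 5664 in BG -/- and 8482 and 8236 in BG +/-. Rpl8, which lies near the site of peptide bond formation, had 5403 and 5239 in BG -/- and 7509 and 7329 in BG +/-. None of these groups overlapped, and the gap between the genotypes was several times the gap between arrays of a genotype. The log2 differences were -0.57 ± 0.11 for Rps20, -0.54 ± 0.11 for Rpl22 and -0.48 ± 0.12 for Rpl8 (adjusted p = 0.0274, 0.0347 and 0.0486 by limma with Benjamini-Hochberg, n = 2 arrays a group). Another Rps20 probe set with a high signal had -0.34 ± 0.13 and did not pass (adjusted p = 0.14, limma). In the cortex the same 5 genes had log2 differences of -0.10 to -0.05, and only the arrays of Rps20 did not overlap. Without any single BG array or either Ctx -/- array 0 of the 41 genes passed, while 38 or 39 were still below 0.

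**Figure D1:**
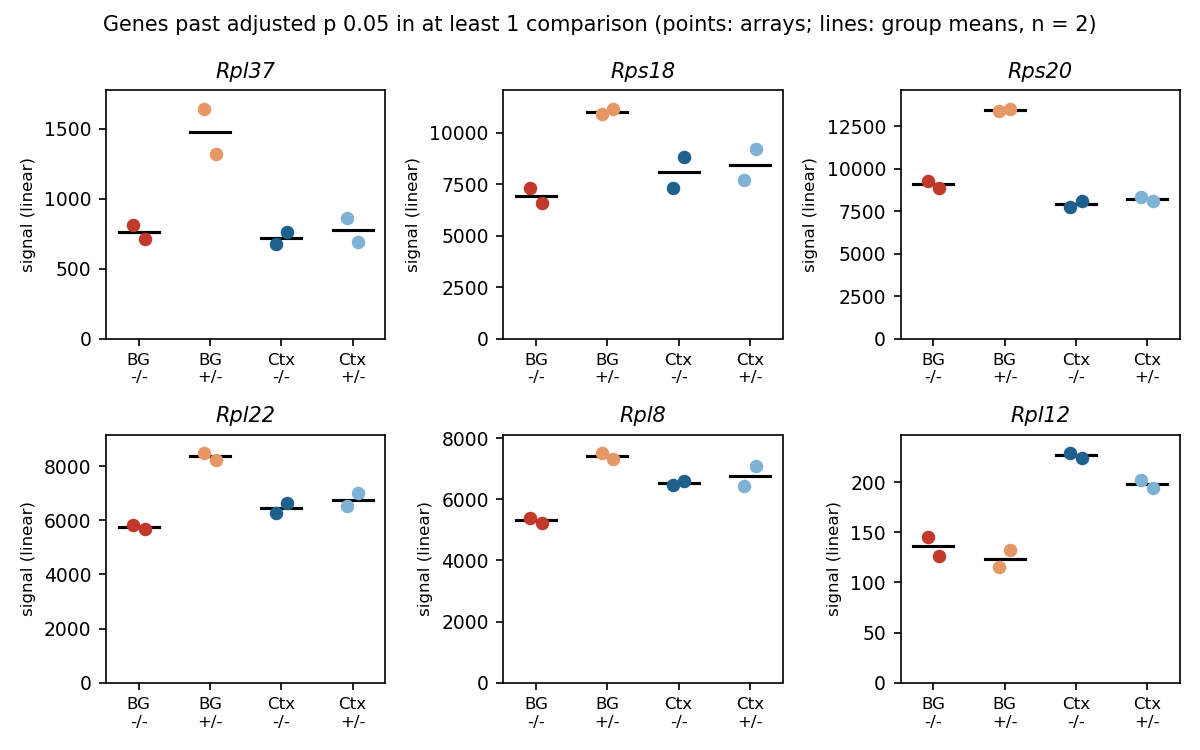
Array signals (linear scale, from 0) of the 6 genes past an adjusted p of 0.05 in at least 1 comparison. Points are arrays and lines the means of the 2 arrays of a group. Rpl37, Rps18, Rps20, Rpl22 and Rpl8 are highest in BG +/-, and Rpl12 is lower in both BG groups than in both Ctx groups.

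The size of the difference varied little among the genes with high signal. The 33 genes whose probe set had a mean signal over 4000 lay between -0.67 (Rps18) and -0.17 (Rps14), with a median of -0.36. The 8 genes with a mean signal under 1000 spread from -0.93 (Rpl37) to 0.14 (Rps25), with a median of -0.27. Large-subunit genes had a median of -0.37 and small-subunit genes one of -0.35. Both arrays of BG -/- lay below both of BG +/- for 38 of the 41 genes, against 37% of all genes.

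**Figure D2:**
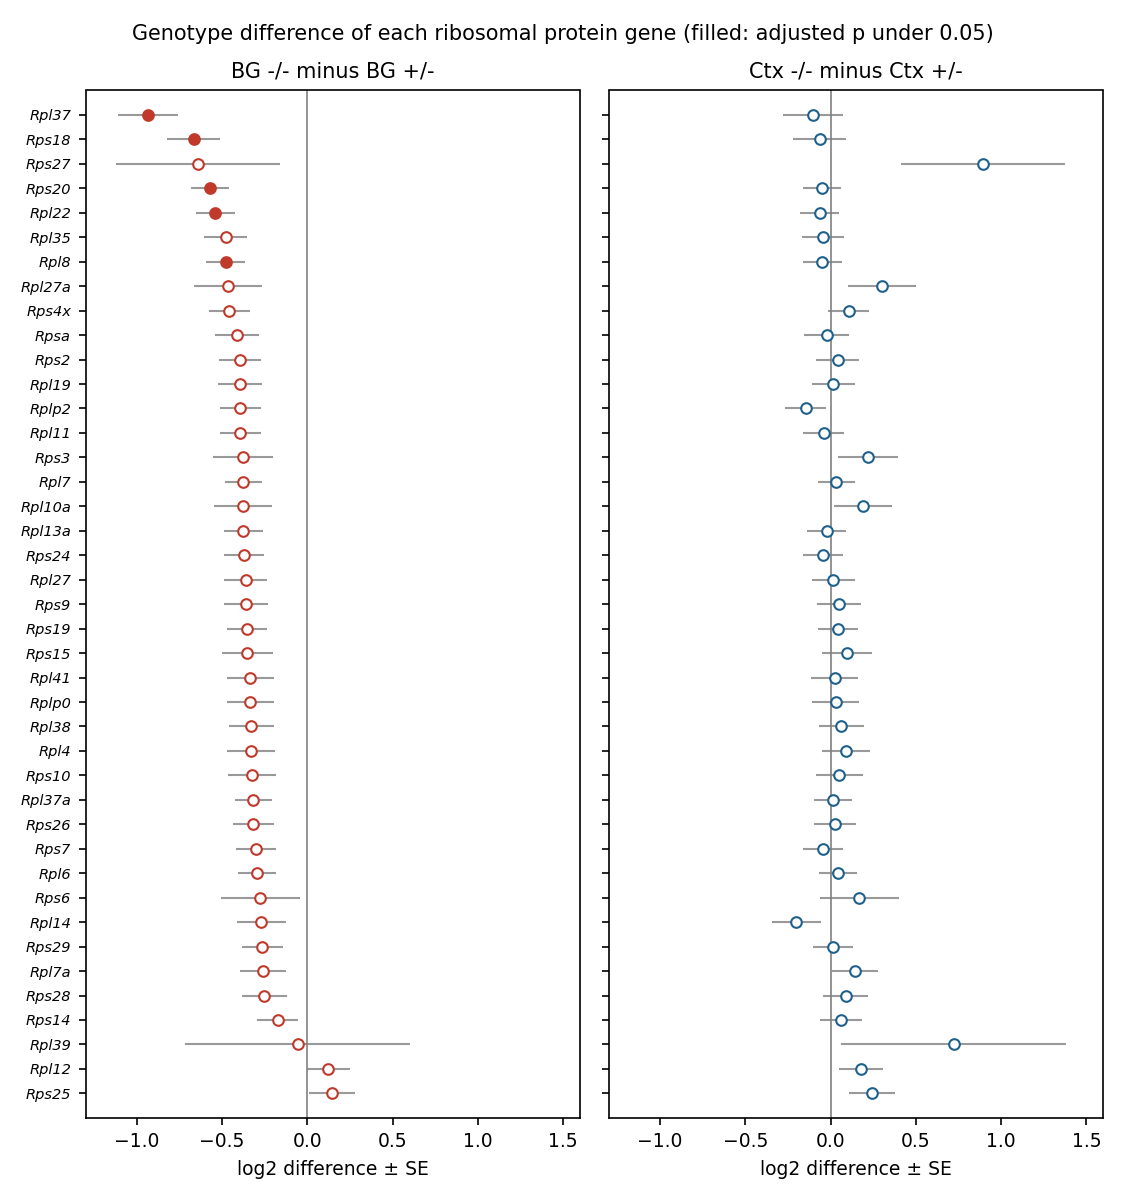
Log2 difference (-/- minus +/-) of each of the 41 ribosomal protein genes in BG (left) and Ctx (right), with its SE from limma; filled points have an adjusted p under 0.05. In BG 39 genes lie left of 0 and 5 are filled, while in Ctx 13 lie left of 0 and none is filled.

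Of the stalk, the arm of the large subunit that recruits translation factors, Rplp0 had 9719 and 8917 in BG -/- against 11811 and 11674 in BG +/-, and Rplp2 had 8672 and 8333 in BG -/- against 11475 and 10853 in BG +/-. The genotypes overlapped in neither gene, but the log2 differences of -0.33 ± 0.14 and -0.39 ± 0.12 did not pass (adjusted p = 0.17 and 0.0909, limma with Benjamini-Hochberg). Rpl12, which sits at the base of that stalk, had 145 and 127 in BG -/- against 115 and 132 in BG +/-, so its arrays overlapped, and its log2 difference was 0.12 ± 0.13. The only other positive difference was that of Rps25, a small-subunit protein that some viral messages need, at 227 and 270 in BG -/- against 235 and 211 in BG +/- (log2 difference 0.14 ± 0.14).

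Rpsa, a small-subunit protein also known as the laminin receptor, had 8831 and 8209 in BG -/- and 11322 and 11336 in BG +/-. Rps6, the small-subunit protein that S6 kinases phosphorylate, had 320 and 232 in BG -/- and 333 and 334 in BG +/-. The genotypes did not overlap in either gene, and the log2 differences of -0.41 ± 0.13 and -0.28 ± 0.23 did not pass. Rpl11, which binds MDM2 and thereby stabilises p53 when assembly fails, had 6497 and 6358 in BG -/- and 8492 and 8384 in BG +/-, a log2 difference of -0.39 ± 0.12 (adjusted p = 0.0895, limma with Benjamini-Hochberg).

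Among genes known from mutants, Rpl38, whose loss alters skeletal patterning in Tail-short mice, had 12284 and 10984 in BG -/- against 14510 and 14665 in BG +/-. Rps19, the gene most often mutated in Diamond-Blackfan anaemia in people, had 6316 and 6104 in BG -/- against 7911 and 7963 in BG +/-. Their log2 differences were -0.33 ± 0.13 and -0.35 ± 0.12, neither past the threshold. Genes often chosen as references in PCR were close to these values, with log2 differences of -0.38 ± 0.11 for Rpl13a and -0.40 ± 0.13 for Rpl19, while Rps18 fell. Of the genes on chromosome X, Rps4x had 9065 and 8298 in BG -/- against 11979 and 11845 in BG +/- (log2 difference -0.46 ± 0.12, adjusted p = 0.0639 by limma). Rpl39, near the exit of the peptide tunnel, had 318 and 261 in BG -/- against 318 and 283 in BG +/-, with a log2 difference of -0.056 ± 0.66.

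The remaining genes named for their size were Rps27, a small-subunit zinc finger protein, and Rps14. Rps27 had 69.6 and 72.3 in BG -/- against 176 and 79.8 in BG +/-, so that 1 of the +/- arrays lay close to the -/- arrays, and its log2 difference of -0.64 ± 0.48 did not pass. Rps14, a protein of the small-subunit platform, had 12243 and 10879 in BG -/- against 13294 and 12767 in BG +/- (log2 difference -0.17 ± 0.12).

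The level of the decrease depended on how the arrays were scaled. With the deposited scaling, 128 other genes with a mean signal over 4000 also had a median log2 difference of -0.24 in BG. Of these, 82.8% were below 0, 9 were called lower and 2 called higher. The 33 bright ribosomal protein genes all had a mean signal over 6000. Of 45 other genes over 6000, 93.3% were below 0, with a median of -0.25. The 99th percentile of signal was 3404 and 3338 in BG -/- against 3828 and 3815 in BG +/-. Quantile normalization gives every array the same distribution of signals. After it, the median of the 41 genes was -0.064, beside -0.12 over all genes and 0.053 over the 128 other bright genes. Of the 41, 32 were then below 0, and Rpl37 alone passed (log2 difference -0.83, adjusted p = 0.0372, limma), which is 1 of 41 genes against 4% of all genes. The other genes called with the deposited scaling then had log2 differences of -0.33 for Rps18, -0.29 for Rps20, -0.26 for Rpl22 and -0.23 for Rpl8 (adjusted p = 0.14, 0.167, 0.168 and 0.209, limma). After centring each array on its median, the median was -0.46, beside -0.18 over all genes, and Rpl37 and Rps20 passed, against 2.66% of all genes called lower.

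**Figure D3:**
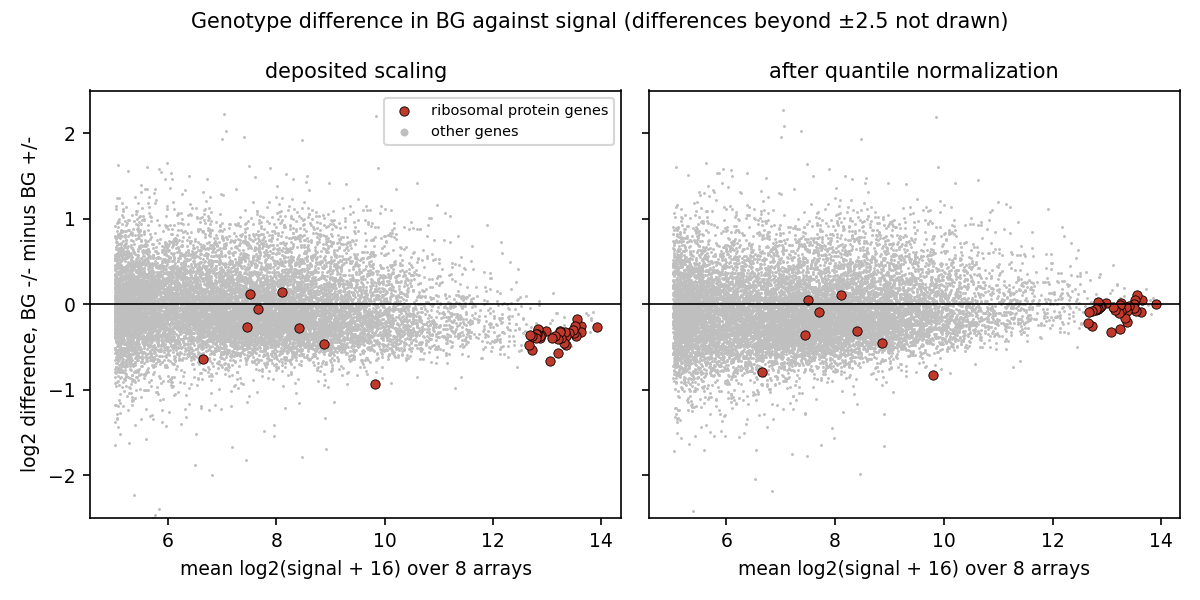
Genotype difference in BG (log2, -/- minus +/-) against mean log2 signal, with the deposited scaling (left) and after quantile normalization (right). Red points are the 41 ribosomal protein genes and grey points other genes. The bright ribosomal protein genes form a cloud around -0.36 on the left and around -0.064 on the right, and Rpl37 stays low in both panels.

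Added control RNAs were also lower in BG -/- than in BG +/-, and differed from each other in direction in Ctx. The cre control read 18600 and 15984 in BG -/- against 20837 and 19557 in BG +/-. In Ctx it read 18754 and 17960 in -/- against 17748 and 17173 in +/-. The bioB hybridisation control read 590 and 539 in BG -/- against 817 and 714 in BG +/-, and 645 and 605 in Ctx -/- against 623 and 559 in Ctx +/-. The dap control, which is added before labelling, read 755 and 862 in BG -/- against 1223 and 1385 in BG +/-, and 317 and 166 in Ctx -/- against 414 and 696 in Ctx +/-. The part of these differences in the decrease was not tested. Globin and other red blood cell genes also moved with it: of 6 measured, 5 were below 0 and Hbb-y, an embryonic globin, fell (log2 difference -0.98 ± 0.13, adjusted p = 0.0101 by limma). Their summed signal was 3185 to 3329 in BG -/- and 6062 to 6397 in BG +/-, and 1486 to 1700 in Ctx -/- against 2080 to 2299 in Ctx +/-, and their part was not tested either. In bulk tissue, fewer cells of a type and less RNA per cell cannot be told apart.

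Probe sets of the same gene were compared, since ribosomal protein genes have many processed pseudogenes with near-identical sequence. Of the 41 representing probe sets, 29 have a suffix other than the plain _at. The suffix _a_at marks probes shared by transcripts of 1 gene. The suffixes _s_at and _x_at mark probes able to match other genes, so what these say of a single gene is uncertain. Those of Rpl37, Rps18 and Rps20 end in _x_at, that of Rpl22 in _s_at and that of Rpl8 in _a_at. All 66 probe sets with a mean signal over 1000 were below 0 in BG, 15 of them called lower, with a median of -0.40. Of the 20 with a lower signal, 12 were below 0 and 1 was called. Over the 86, 16 were called lower (18.6%) and 0 higher, against 2.23% and 7.5% of all probe sets. Among 19 genes with several probe sets, Rps18 had 3 called lower (log2 differences -0.67, -0.61 and -0.52). Its dim one at 0.44 did not pass. Of 4 for Rps20, 1 was called lower, and their log2 differences ran from -0.57 to 0.15. No gene had 1 probe set called higher and another called lower. The 106 probe sets that name a ribosomal protein gene beside other genes had a median of -0.37, with 8 called lower and 0 higher.

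**Figure D4:**
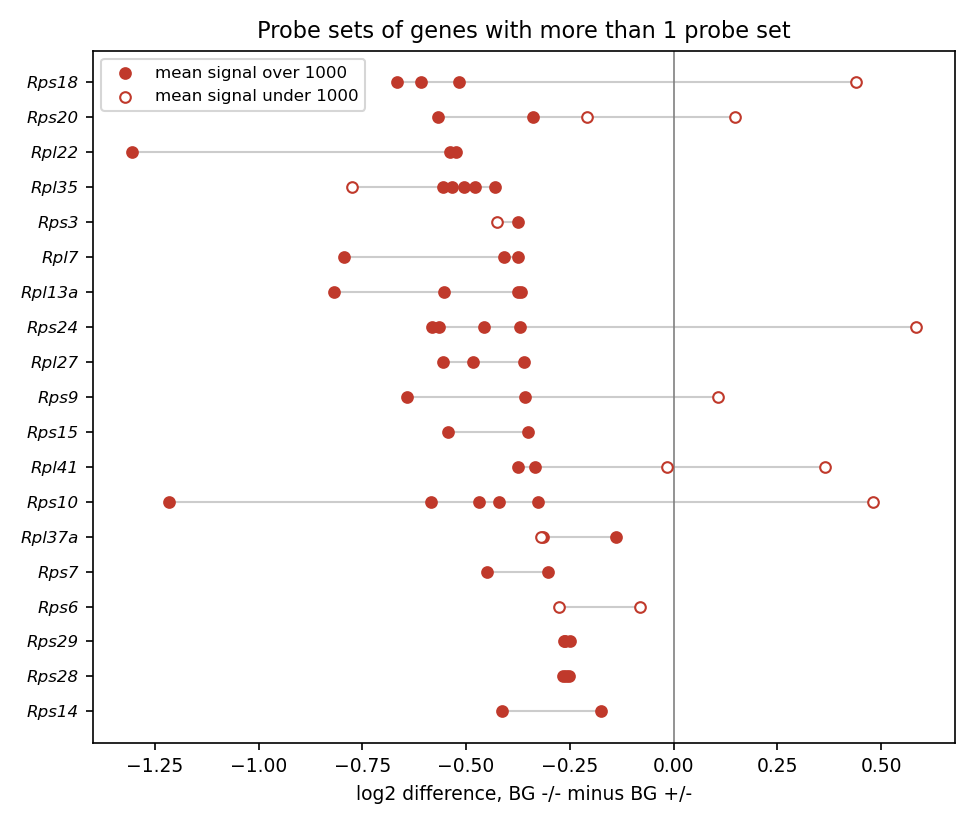
Log2 difference in BG (-/- minus +/-) of every probe set of the 19 ribosomal protein genes with more than 1. Filled points have a mean signal over 1000 and open points a lower one. All filled points lie left of 0, and the points right of 0 are open.

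In the cortex no ribosomal protein gene passed. Between Ctx -/- and Ctx +/-, 0 of the 41 genes passed in either direction (limma) and 0 had an unadjusted p under 0.05, against 0.022% of all genes called higher and 0.183% called lower. Of the 41, 28 were above 0 (43.9% of all genes) and 13 below, and the median log2 difference was 0.033, against -0.031 over all genes. Both arrays of Ctx -/- lay above both of Ctx +/- for 5 genes (15.9% of all genes) and below them for 3 (23.4% of all genes).

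The lowest cortical log2 differences were -0.20 ± 0.14 for Rpl14, a large-subunit protein, and -0.15 ± 0.12 for Rplp2. Rpl14 had 135 and 169 in Ctx -/- against 171 and 181 in Ctx +/-, and Rplp2 had 9203 and 9350 in Ctx -/- against 9658 and 10916 in Ctx +/-. The highest were 0.89 ± 0.48 for Rps27, 0.72 ± 0.66 for Rpl39, 0.30 ± 0.20 for Rpl27a and 0.24 ± 0.14 for Rps25. For Rps27 this rested on a single array, with 62.1 and 185 in Ctx -/- against 58.7 and 44.9 in Ctx +/-. For Rpl39 it rested on a low value in Ctx +/-, with 135 and 177 in Ctx -/- against 218 and 29.99 in Ctx +/-, and without that array the log2 difference was -0.45. The median signal of the 41 genes was 7661 and 8069 on the Ctx -/- arrays and 7689 and 8076 on the Ctx +/- arrays, so the arrays of a genotype differed more than the genotypes.

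The difference between regions was tested directly. The genotype difference in BG minus that in Ctx was below 0 for all 41 genes (52.2% of all genes). Its median was -0.40, against -0.022 over all genes. Of the 128 other bright genes, 88.3% were below 0, with a median of -0.27. Of 45 other genes with a mean signal over 6000, 97.8% were below 0, with a median of -0.29. None of the 41 passed in either direction (limma with Benjamini-Hochberg), against 0.272% of all genes called higher and 0.066% called lower, and 11 were lower at an unadjusted p under 0.05, against 6.82% of all genes. The smallest adjusted p was 0.171, for Rpl37 at -0.83 ± 0.25. The decrease in BG was thus not shown to differ from the cortex for any single gene. After quantile normalization the median of this difference was -0.071 and 32 of the 41 were below 0.

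By group, the BG +/- arrays stood highest. The median signal of the 41 genes averaged 7438 ± 315 in the BG -/- arrays and 9856 ± 55.7 in the BG +/- arrays, and 7865 ± 288 in the Ctx -/- arrays against 7883 ± 274 in the Ctx +/- arrays (SD, n = 2 each). The BG +/- group had the highest mean of the 4 groups for 34 genes, and BG -/- had the lowest for 31. The shares over all genes were not computed, so these ranks are not shown to be particular to the 41 genes. The median deviation of the 128 other bright genes was 0.17 on both BG +/- arrays and -0.10 to 0.0024 on the others. On single arrays the median signal of the 41 genes was at least 9817 in BG +/- and at most 8076 in the other groups.

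**Figure D5:**
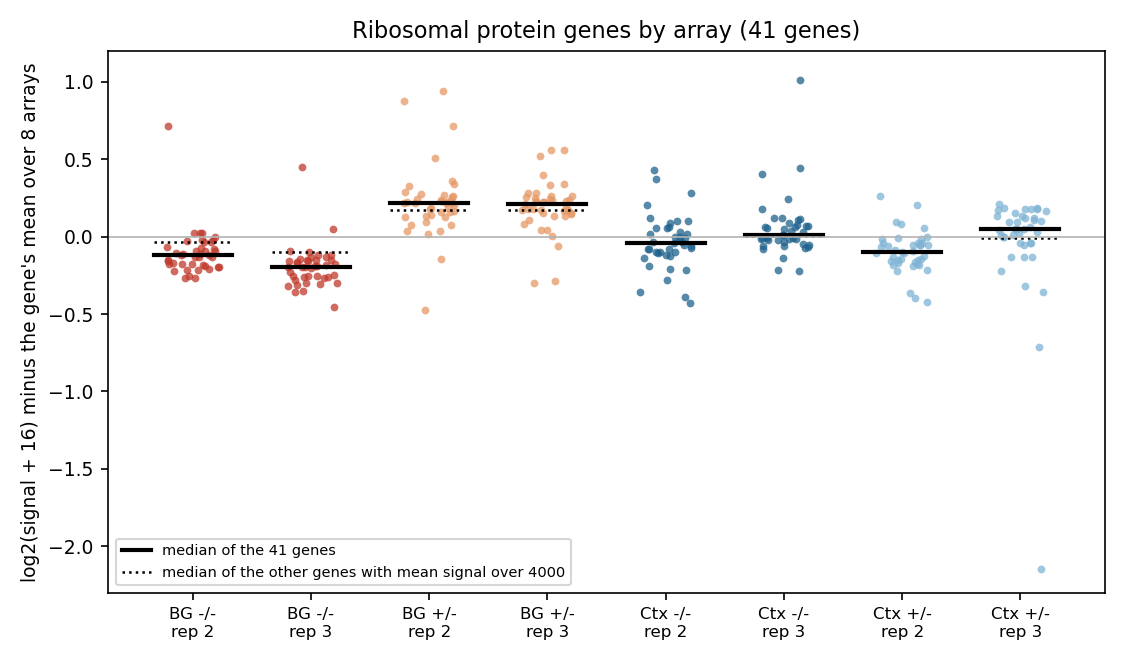
Each ribosomal protein gene's log2(signal + 16) on an array minus its mean over the 8 arrays (points), with the median of the 41 genes (bar) and of 128 other genes with a mean signal over 4000 (dotted). The bars of both BG +/- arrays are near 0.21, and those of the other arrays lie between -0.19 and 0.05.

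Compared between regions, BG +/- was above Ctx +/- for 37 of the 41 genes (59.7% of all genes). The median log2 difference was 0.27, against 0.11 over all genes. It was 0.21 both for the 128 other genes with a mean signal over 4000 and for the 45 over 6000. Of these, 21.9% and 13.3% were below 0, against 9.76% of the 41. Of the 41 genes, 2 passed as higher and 1 as lower, or 4.88% and 2.44%, against 14% and 10.7% of all genes. Rpl37 had 1642 and 1318 in BG +/- against 861 and 690 in Ctx +/- (log2 difference 0.92 ± 0.18, adjusted p = 0.0127 by limma). Rps20 had 13390 and 13522 in BG +/- against 8315 and 8074 in Ctx +/- (0.71 ± 0.11, adjusted p = 0.00624 by limma). Its other probe set with a high signal had 0.38 ± 0.13 and did not pass (adjusted p = 0.0718 by limma). Rpl12 was lower in the basal ganglia, at 115 and 132 in BG +/- against 202 and 194 in Ctx +/- (-0.62 ± 0.13, adjusted p = 0.0163 by limma). Both BG +/- arrays lay above both Ctx +/- arrays for 30 genes, against 39.2% of all genes. Without BG +/- replicate 2, the calls of Rpl37 and Rpl12 were lost. After quantile normalization the median was 0.040 and 28 of the 41 genes were above 0.

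Between the -/- groups the median lay on the other side of 0 with the deposited scaling. BG -/- was below Ctx -/- for 36 of the 41 genes (44.4% of all genes), with a median log2 difference of -0.13 against 0.063 over all genes. Of the 128 other genes with a mean signal over 4000, 53.9% were below 0, with a median of -0.018. Of the 45 over 6000, 64.4% were below 0, with a median of -0.12. After quantile normalization the median of the 41 genes was -0.039 and 23 of the 41 were below 0. Rpl12 was the single gene called, with 145 and 127 in BG -/- against 229 and 224 in Ctx -/- (log2 difference -0.68 ± 0.13, adjusted p = 0.016 by limma), and none was called higher, against 7.25% and 11.4% of all genes. At an unadjusted p under 0.05, 7 were lower, against 15% of all genes, and 0 were higher. Rpl37 and Rps20, the genes called higher in BG +/- than in Ctx +/-, had log2 differences of 0.09 ± 0.18 and 0.20 ± 0.11 here. The Rpl12 probe set thus had a lower signal in basal ganglia than in cortex in both genotypes, also after quantile normalization and median centring. The call between the -/- groups was lost when any 1 of the -/- arrays was left out. Signals of this probe set were at most 229, against means over 4000 for the 33 bright genes, so what it says of the gene is uncertain.

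Genes of the same machinery were set beside these from lists chosen by function. Their calls in BG need every BG array. Without any single one, none was left on the translation, mitochondrial ribosome, assembly, regulator, cell cycle and maturation lists below. Without either Ctx -/- array, none was left on the elongation, initiation and 5′ terminal oligopyrimidine lists, and few on the mitochondrial list. Each of these fits leaves 1 array in a group, and most of all the genes called lower in BG were lost in them too. Beside the BG counts below, 3.05% of all genes were called lower and 4.76% higher. Of 8 elongation factors measured, 2 fell in BG -/- and none rose, with a median log2 difference of -0.28. They were Eef2, which moves the ribosome along the message (-0.59 ± 0.13), and Eef1d, which reloads the factor that brings transfer RNAs (-0.62 ± 0.14). Eef1a1, that factor itself, had 15144 and 12984 in BG -/- against 14918 and 14854 in BG +/-, which overlap. Of 31 initiation factors, 3 fell (Eif3m, Eif3e and Eif3k, all subunits of the same factor that binds the small subunit) and 2 rose (Eif3a, its largest subunit, at 0.52 ± 0.11, and the X-linked Eif2s3x at 0.53 ± 0.11). Of 16 other genes with 5′ terminal oligopyrimidine messages, 3 fell and none rose, with a median of -0.31; these were Eef2, Eef1d and Eif3e again. After quantile normalization the medians of the elongation, initiation and 5′ terminal oligopyrimidine lists were -0.069, -0.046 and -0.087. Then 1 gene was called lower on each and 2 initiation factors higher, against 4% and 4.77% of all genes. In the cortex 0 of the genes on these lists passed (limma), and 2 initiation factors were higher at an unadjusted p under 0.05.

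The proteins of the mitochondrial ribosome, which is built separately, also had lower signals in BG -/-. All 76 of their genes measured were below 0 in BG (58.2% of all genes), from -0.82 to -0.01, with a median of -0.31. Of these, 7 fell (3.05% of all genes) and none rose. Mrpl41, of its large subunit, had 702 and 715 in BG -/- against 1304 and 1220 in BG +/- (log2 difference -0.82 ± 0.15, adjusted p = 0.0228 by limma). Mrps16, of its small subunit, had 353 and 321 in BG -/- against 612 and 559 in BG +/- (-0.77 ± 0.15, adjusted p = 0.0261 by limma). Their probe sets had mean signals of 82.4 to 1398. After quantile normalization their median was still -0.31, with 76 of 76 below 0 and 7 called lower, against 4% of all genes. The cytosolic genes then had a median of -0.064 with 32 of 41 below 0. The difference between the 2 sets was not tested. In the cortex their median was -0.050, 0 passed (limma), and 1 was lower at an unadjusted p under 0.05.

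Factors of ribosome assembly and ribosomal RNA synthesis had few calls, in both directions. Over all genes, 3.05% were called lower and 4.76% higher in BG. Of 55 measured, 3 fell in BG -/- (Nop10, Nip7 and Polr1c) and 2 rose (Dkc1 and Utp6), with a median of -0.23. Nop10 and Dkc1 are subunits of the same RNA-modifying particle, with log2 differences of -0.61 ± 0.13 and 0.996 ± 0.13. Of 23 regulators of ribosome synthesis, 1 fell (Maf1, a repressor of RNA polymerase III) and 3 rose (Rictor, Rps6ka3 and Larp4). Rictor, a subunit of an mTOR complex, had 258 and 288 in BG -/- against 139 and 138 in BG +/- (0.90 ± 0.12, adjusted p = 0.0116 by limma). Of 12 p53 targets, Plk2 and Bbc3 fell and Trp53inp1 rose.

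Of 31 cell cycle genes, 3 fell in BG -/- (Cdk1, Mcm5 and Cdc20) and 4 rose (Cenpf, Top2a, Kif11 and Bub1). Over all genes, 3.05% were called lower and 4.76% higher. The median log2 difference of the 31 genes was -0.33, with 21 below 0. At an unadjusted p under 0.05, 15 were lower (15.2% of all genes) and 7 higher. After quantile normalization that median was -0.17. Of 22 genes of neuron maturation, none fell and 4 rose (Dcx, Scn2a, Snap25 and Elavl4), with a median of -0.048 and 11 below 0, Dcx having 4993 and 4617 in BG -/- against 2599 and 2426 in BG +/-. Ribosomal protein paralogues and fusions outside the naming rule, such as Fau, Rps3a1 and Rps27l, had a median of -0.38 over 6 genes (-0.17 after quantile normalization), with 0 called (limma) and 4 lower at an unadjusted p under 0.05. In the cortex, the choroid plexus markers Ttr and Kcne2 fell (2 of 5 measured, with summed signals of 32.8 to 87.2 in Ctx -/- against 12067 to 13943 in Ctx +/-). Without either Ctx +/- array, or without Ctx -/- replicate 3, 1 of these was called. Of 5 adrenal medulla markers measured, 0 passed between genotypes in either region (limma), and 1 was lower in BG -/- at an unadjusted p under 0.05.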

How the data were processed

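RNA was measured on 8 arrays, 2 in each of 4 groups taken from the sample titles. Per the deposited value table, the values are intensity on a linear scale, 1 summarised signal a probe set. The summarising software is not given here. The mean of each array with 2% trimmed at each end was 150.001, so the authors' values had been scaled to a common level. No detection calls were used.

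Signals were analysed as log2(signal + 16), which understates differences of dim genes, and the lowest 30% of probe sets by mean were left out. Linear models of 4 group means were fitted to all 8 arrays in limma 3.58.1 under R 4.3.3, with two-sided tests adjusted by Benjamini-Hochberg over 31526 probe sets and a threshold of 0.05. There were 4 residual and 2.76 prior degrees of freedom, and the number of arrays limits the precision. The fit was tested on simulated data. Symbols came from the platform annotation (34945 probe sets with 1 symbol, 932 with several and 9160 with none).

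The members and lists were chosen with earlier results of these data known. Named genes are those past the threshold, the 4 largest differences in each direction in each genotype comparison, genes of known role and those on chromosome X. Of the lists, mainly genes past the threshold are named. Alternatives changed the offset, filter, scaling, choice of probe set, replicate block and arrays. Deviations of same-numbered arrays correlated at -0.0262 to 0.0218 between groups, so no pairing by replicate number was seen. With 2 arrays a group this cannot exclude shared animals or litters, and the labels do not say.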

Additional observations from a re-analysis of the deposited data

How the results depend on the processing

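The 41 genes kept a median below 0 in BG under all settings listed here but the last, from -0.46 to -0.064, and 38 or 39 of 41 genes stayed below 0 when any array was left out. The number called lower did not hold: against 5 (3.05% of all genes called lower), it was 3 with an offset of 1 (1.77% of all genes), 16 with 64 (7.52%), 1 with no filter (0.77%), 2 with arrays centred on their median (2.66%, median -0.46), 1 with quantile normalization (4%, median -0.064), 8 with the mean of a gene's probe sets (3.33%) and 0 of 20 with plain probe sets alone (2.43%). Without any BG array or either Ctx -/- array it was 0, and without either Ctx +/- array 5, a range of 0 to 5, at 0.11% to 3.7% of all genes. With the replicate number as a block, 1 gene, Rpl37, was called lower (1.3% of all genes). The labels do not say whether the numbers pair the arrays. With arrays centred on the median of the 41 genes, an alternative chosen after seeing the data that sets the middle of these genes near 0 by construction, 0 were lower and 2 higher (0.462% and 24.3% of all genes), with a median of 0.049.

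In Ctx the median was 0.10 with median centring and ranged from -0.044 to 0.11 as arrays were left out. The median of the difference between regions was -0.56 with median centring, -0.071 with quantile normalization, 0.0076 with centring on the 41 genes and -0.50 to -0.31 with arrays left out. For BG +/- against Ctx +/-, 9 were higher with an offset of 64 (18.4% of all genes), 7 with the mean of probe sets (15.8%) and 0 with plain probe sets (12.9%), where 3 of 20 were lower (11.5%); centring on the 41 genes gave 2 lower (24.1%). Its median was 0.15, 0.040 and -0.052 with the median, quantile and 41-gene scalings. Leaving out arrays gave medians of 0.18 to 0.29, and the calls of Rpl37 and Rpl12 were lost without BG +/- replicate 2. For BG -/- against Ctx -/-, 3 were lower with an offset of 64 (10.8% of all genes), 9 with median centring (18.7%) and 2 with the mean of probe sets (7.65%); the medians were -0.42, -0.039 and -0.052 with the 3 scalings and -0.32 with plain probe sets. The call of Rpl12 was lost when any 1 of the BG -/- or Ctx -/- arrays was left out, which leaves 1 array in that group. The genes called also changed without either Ctx +/- array.

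Signs of single genes also moved. In BG, quantile normalization turned 7 of the 41 genes positive: Rps14 was 0.11, and Rpl37a, Rpl6, Rpl7a, Rps26, Rps28 and Rps7 lay between 0.0010 and 0.054. Plain probe sets alone turned 3 of 20 (Rps10, Rps24 and Rps9), and Rpl39 was 0.078 without BG -/- replicate 3 and 0.023 without BG +/- replicate 2, in a range of -0.19 to 0.078 over arrays left out. Centring on the 41 genes, which adds a common shift to each array, turned 29 of them, a result of its construction that says nothing of single genes. Among the genes named, it gave 0.35 for Rpl39, 0.23 for Rps14, 0.072 for Rplp0, 0.014 for Rplp2, 0.13 for Rps6, 0.014 for Rpl11, 0.078 for Rpl38, 0.053 for Rps19, 0.031 for Rpl13a and 0.011 for Rpl19. Of the named genes in Ctx, Rpl37 was 0.053 without Ctx +/- replicate 2 (range -0.26 to 0.053), Rps18 was 0.072 without Ctx -/- replicate 2 and 0.067 without Ctx +/- replicate 3 (range -0.20 to 0.072), and Rpl39 was -0.45 without Ctx +/- replicate 3 (range -0.45 to 1.89). The cause of these changes was not tested, beyond the fewer arrays and probe sets that some alternatives leave. Signals that approach the background, as for Rps27, Rpl12, Rpl14 and Rpl39, limit what can be read from these genes.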
